A study of Mus musculus with 48 samples.

Results

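The genes described here encode proteins that fold, modify and export secretory proteins in the endoplasmic reticulum (ER) and the factors that respond when that folding is disturbed. A fixed list of 36 such genes was followed in lymph node stromal cells profiled on Illumina mouse bead arrays, which measure labeled RNA through gene-specific probes fixed to beads. Of the 36 genes, 34 had a named probe, and 32 of these lay above the background level of the arrays in at least 1 group and were tested among 13119 genes. *Dnajb11* and *Sec23b* had no named probe. The single probes of *Manf* and *Canx* were not well above background, with highest values of 5.31 and 5.45 against a level of 5.62 on the log2 scale, so nothing is reported on their expression. The stromal cells were fibroblastic reticular cells (FRCs, CD31-gp38+), blood endothelial cells (BECs, CD31+gp38-), lymphatic endothelial cells (LECs, CD31+gp38+) and double-negative cells (DN cells, with neither marker). They were sorted from skin-draining lymph nodes of naive wild-type mice (the naive groups) or of mice injected intravenously with 200000 to 400000 Eμ-*Myc* lymphoma B cells (the tumor groups), in which tumor cells made up 4% to 10% of lymph node lymphocytes. The Eμ-*Myc* cells come from mice in which the immunoglobulin heavy chain enhancer drives *Myc*. The age of the mice is not given in the labels. Each of the 8 groups held 3 biological replicates read on 2 strips each, and each array received 80 ng of RNA pooled from 4 to 6 sorts. Nothing in the labels says whether replicates came from separate animals, so the p-values measure the spread between these samples.

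Proteins that enter the secretory pathway pass the Sec61 channel, fold with the help of ER chaperones and disulfide isomerases, and leave in COPII vesicles, while proteins that fail to fold are returned to the cytosol and degraded. When unfolded proteins build up, the sensors IRE1 (encoded by *Ern1*), ATF6 and PERK start the unfolded protein response, in which spliced XBP1 and cleaved ATF6 raise chaperone and degradation genes, and PERK raises ATF4 and its targets, among them *Ddit3*, *Trib3* and *Asns*. FRCs secrete the collagen fibers of the lymph node, which makes ER folding a large task in this cell type. The ER stress element (ERSE) in the promoters of many chaperone genes is the classic binding site of ATF6 and XBP1.

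Promoter stretches are shown for 6 genes whose window holds a motif of the unfolded protein response. *Creld2* and *Pdia6* are the genes among them that were called in a cell type. They come from RefSeq windows of 250 bases before to 50 bases after the gene start (GRCm38.p6), and 30 of the 36 genes had a window. The ERSE, searched on both strands as CCAAT, any 9 bases and CCACG, was found in 39 of 32851 windows of the genome (0.119%) and in those of 9 of the 30 genes, namely *Calr*, *Canx*, *Creld2*, *Derl3*, *Dnajc3*, *Hsp90b1*, *Hspa5*, *Pdia6* and *Syvn1*. The end pieces are common alone, with CCAAT in 37.4% and CCACG in 32.8% of all windows, and every ERSE match holds both by construction. Capitals mark the motif, read 5′ to 3′ on the strand of the gene, and positions count from the gene start.
*Hspa5* (ERSE at -65 to -47, chr2:34772000-34772068, gene on the plus strand): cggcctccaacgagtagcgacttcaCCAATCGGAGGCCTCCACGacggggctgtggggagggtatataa
*Creld2* (ERSE on the opposite strand at -126 to -108, chr15:88819495-88819563, plus strand): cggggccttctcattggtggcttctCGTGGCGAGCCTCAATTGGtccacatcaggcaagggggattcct
*Pdia6* (ERSE at -98 to -80, chr12:17266466-17266534, plus strand): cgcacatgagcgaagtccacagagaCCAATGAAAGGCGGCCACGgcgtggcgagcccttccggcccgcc
*Calr* (ERSE on the opposite strand at -162 to -144, chr8:84847050-84847118, minus strand): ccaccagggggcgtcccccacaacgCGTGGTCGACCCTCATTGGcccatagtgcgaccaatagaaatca
*Herpud1* (ERSE-II at -52 to -42, chr8:94386352-94386412, plus strand): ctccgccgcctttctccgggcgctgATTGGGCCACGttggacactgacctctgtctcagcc
*Asns* (composite element at -23 to -16, chr6:7693210-7693257, minus strand): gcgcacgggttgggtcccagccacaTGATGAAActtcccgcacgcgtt

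The related ERSE-II (ATTGG, any base, CCACG) was found in 12 windows (0.0365%), those of *Dnajb11* and *Herpud1* among them. The C/EBP-ATF composite element to which ATF4 binds (TGATG, any base, AA) was in 3.97% of windows and in those of *Asns*, *Herpud1* and *Trib3*. The XBP1 element UPRE (TGACG followed by TGG) was in 0.676% of windows and, of the 30 genes, in that of *Sec24d*. A match describes letters in a window and does not show that a factor binds there. Of the other genes called in a cell type, *Sdf2l1*, *Dnajb9* and *Ddit3* had a window without any of these motifs, and *Hyou1* had no window.

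The strips held 863780 to 1044181 beads each (median 18 to 22 for a bead code), and the number of arrays limits the precision. Medians of the marker lists were highest in the cell type they mark in naive mice, with 14.30 to 14.45 for FRCs, 13.89 to 14.21 for BECs, 13.76 to 13.82 for LECs and 10.64 to 11.74 for the pericyte list of DN cells. Single markers departed from this. *Acta2* of the pericyte list was 15.75 in FRCs and 15.41 in DN cells, *Madcam1* of the BEC list was 11.24 in LECs and 9.50 in BECs, *Ccl21a* of the FRC list was 15.30 in BECs and 15.17 in FRCs, and the gp38 gene *Pdpn* was still at 11.25 ± 1.93 in DN cells. Several libraries also carried RNA of other cells. The median log2 signal of 9 tested B cell markers was 8.95 and 9.75 in BEC tumor replicates 1 and 2 and 10.22 and 9.73 in DN tumor replicates 1 and 2, against 5.07 to 6.65 in all naive replicates. The median of 19 pancreatic enzyme genes was 13.07 and 10.83 in LEC tumor replicates 1 and 2, against 5.02 to 5.64 in every other replicate. In pooled sorted cells, a smaller number of cells that express a gene and less RNA per cell cannot be told apart. All 6 arrays of a cell type shared a slide on which naive and tumor replicates took fixed places, so array position cannot be told apart from tumor state, nor slide from cell type.

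In FRCs, 4 of the 32 ER genes were higher in mice with tumor and none was lower, against 6.4% of all 13119 genes called higher and 4.12% called lower (limma, adjusted p under 0.05). The 4 were the chaperone and cofactor genes *Hyou1*, *Sdf2l1* and *Creld2* and the disulfide isomerase gene *Pdia6*. In BECs none was called higher (3.6% of all genes), and *Dnajb9*, a BiP cochaperone gene, and *Ddit3*, the CHOP gene, were lower (1.49%). Each of these 6 genes had a change of the same sign in FRCs and BECs, and no ER gene passed the test of a difference between them (smallest adjusted p = 0.39). No ER gene passed the limma test in LECs (0.785% of all genes higher, 0.137% lower) or in DN cells (4.78% higher, 2.61% lower). At an unadjusted p under 0.05 there were 1 and 8 of the 32. The shares of all genes at that unadjusted threshold are not given here, so counts at it are not read as a trait of a gene list. With variances estimated gene by gene in place of limma's moderated ones, 2 ER genes were lower in LECs and 1 in DN cells before adjustment. Of all 13119 genes, 659 and 545 were lower in that test. After adjustment no gene of the array was called in either cell type. The median log2 change over the 32 genes was 0.11 in FRCs, 0.01 in BECs, -0.10 in LECs and -0.18 in DN cells, beside -0.03, -0.04, 0.00 and -0.07 over all genes. Naive and tumor replicates of FRCs lay fully apart for 11 of the 32 genes, 9 with the tumor replicates higher (19.5% of all genes) and 2 with them lower (20%). The corresponding numbers were 6 higher and 4 lower in BECs (12.9% and 13.1% of all genes), 1 and 3 in LECs (11.3% and 9.28%), and 1 and 2 in DN cells (8% and 7.98%). With 3 replicates against 3, a two-sided exact permutation test of a single gene cannot go below p = 0.1.

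**Figure D1:**
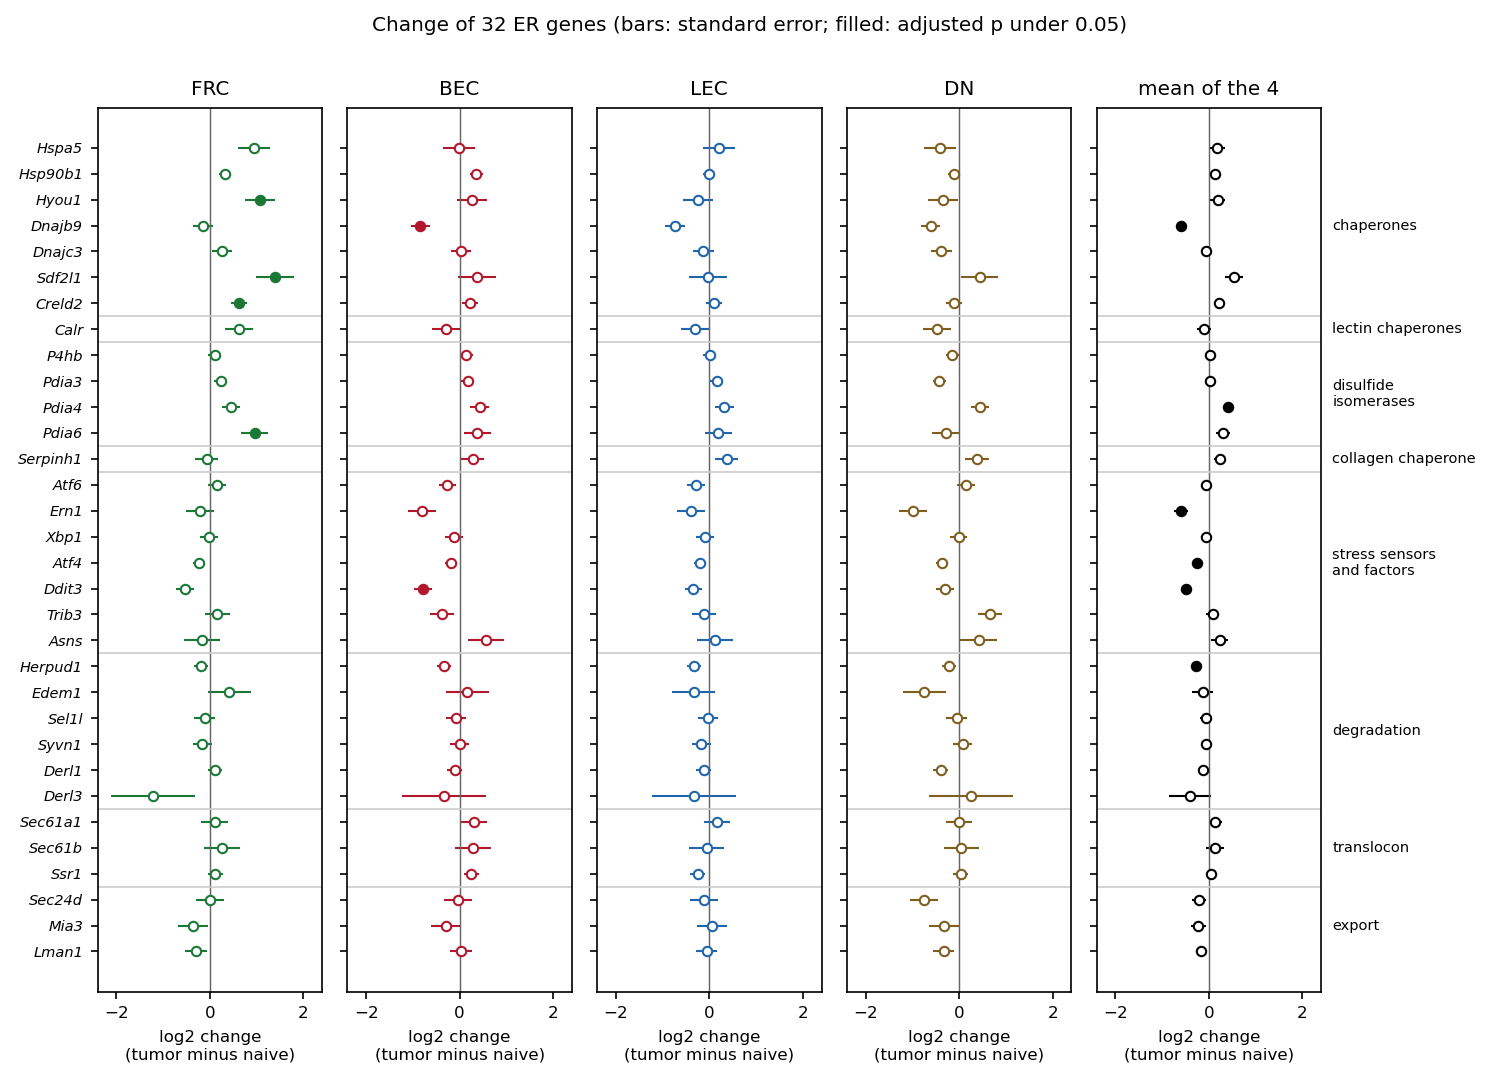
Log2 change (tumor minus naive, x axis) of the 32 ER genes, ordered by role, in FRCs, BECs, LECs and DN cells and as the mean of the 4 cell types. Points are limma estimates from 3 replicates per group, bars are standard errors, and filled points passed an adjusted p of 0.05. The filled points of FRCs, *Hyou1*, *Sdf2l1*, *Creld2* and *Pdia6*, lie to the right of 0, and those of BECs, *Dnajb9* and *Ddit3*, to the left.

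Of the 7 chaperone genes tested, 3 rose in FRCs, and 6 had a change above 0 (median log2 change 0.62). *Sdf2l1* encodes a stress-inducible partner of the BiP cochaperones, and its log2 signal in FRCs was 8.91, 8.42 and 8.03 in the naive replicates and 10.03, 10.14 and 9.36 in the tumor replicates (probe ILMN_1221943, gene at chr16:17130138-17132383). The groups did not overlap, and the rise was 2.62-fold (log2 change 1.39, standard error 0.40, adjusted p = 0.032). *Hyou1*, a large HSP70-type chaperone that acts as a nucleotide exchange factor for BiP, had 5.91, 6.46 and 6.31 in naive and 7.12, 7.46 and 7.29 in tumor FRCs (ILMN_2661367, chr9:44379490-44392369). It rose 2.09-fold without overlap (log2 change 1.07, standard error 0.32, adjusted p = 0.035), at signals not far above the background level. *Creld2*, an ER stress-inducible folding factor, had 10.98, 10.88 and 11.08 in naive and 11.70, 11.67 and 11.42 in tumor FRCs (ILMN_2983948, chr15:88819646-88826681). Again every tumor replicate was above every naive one, by 1.53-fold on the means (log2 change 0.62, standard error 0.17, adjusted p = 0.025), and the second *Creld2* probe had a difference of 0.64.

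*Hspa5*, which encodes BiP, the central ER chaperone and the repressor of the 3 stress sensors, did not pass the test in FRCs. Its probe was dim, with 6.08, 6.63 and 7.08 in the naive and 7.57, 7.75 and 7.31 in the tumor replicates. The groups lay apart, and the log2 change was 0.94 (95% interval 0.23 to 1.66, adjusted p = 0.085). In BECs the change of *Hspa5* was -0.02 (95% interval -0.73 to 0.70), in LECs 0.20 and in DN cells -0.40. *Hsp90b1*, which encodes GRP94, the HSP90 chaperone of the ER, stood near the top of the range in all groups. In FRCs it was 13.45, 13.56 and 13.64 in naive and 13.92, 13.80 and 13.89 in tumor replicates, and in BECs 13.30, 13.41 and 13.23 against 13.63, 13.83 and 13.57. Both cell types had higher values in every tumor replicate, by 0.32 and 0.36 (adjusted p = 0.12 and 0.11), whereas the change was 0.00 in LECs and -0.11 in DN cells. *Dnajc3*, a BiP cochaperone that also inhibits PERK, had changes from -0.38 in DN cells to 0.26 in FRCs and passed in no cell type.

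*Dnajb9* was the chaperone gene with changes below 0 in all 4 cell types. It encodes ERdj4, a BiP cochaperone that restrains IRE1 and is a target of XBP1. In BECs its signal was 12.26, 12.08 and 12.22 in the naive and 10.93, 11.27 and 11.84 in the tumor replicates (ILMN_2829636, chr12:44205897-44210068). The groups did not overlap, and the 1.79-fold fall passed the test (adjusted p = 0.026, log2 change -0.84 with a standard error of 0.21). The smallest drop was in tumor replicate 3, the BEC tumor library with little B cell signal. In LECs the naive replicates had 11.91, 11.96 and 11.91 and the tumor replicates 11.17, 11.23 and 11.15. These groups lay apart by many times their SDs of 0.03 and 0.04, but the spread shared over all 8 groups left the log2 change of -0.74 at an adjusted p of 0.14. In a model of LECs alone *Dnajb9* was among 18 genes of the array called lower. DN cells had 11.41, 12.19 and 11.47 in naive and 10.89, 10.89 and 11.46 in tumor replicates, which overlapped (log2 change -0.61, adjusted p = 0.088). In FRCs the change was small, at -0.15 (adjusted p = 0.72), although the tumor values of 11.28 to 11.41 all lay below the naive values of 11.43 to 11.60. The second *Dnajb9* probe had differences of -0.12, -0.87, -0.69 and -0.70 in FRCs, BECs, LECs and DN cells.

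**Figure D2:**
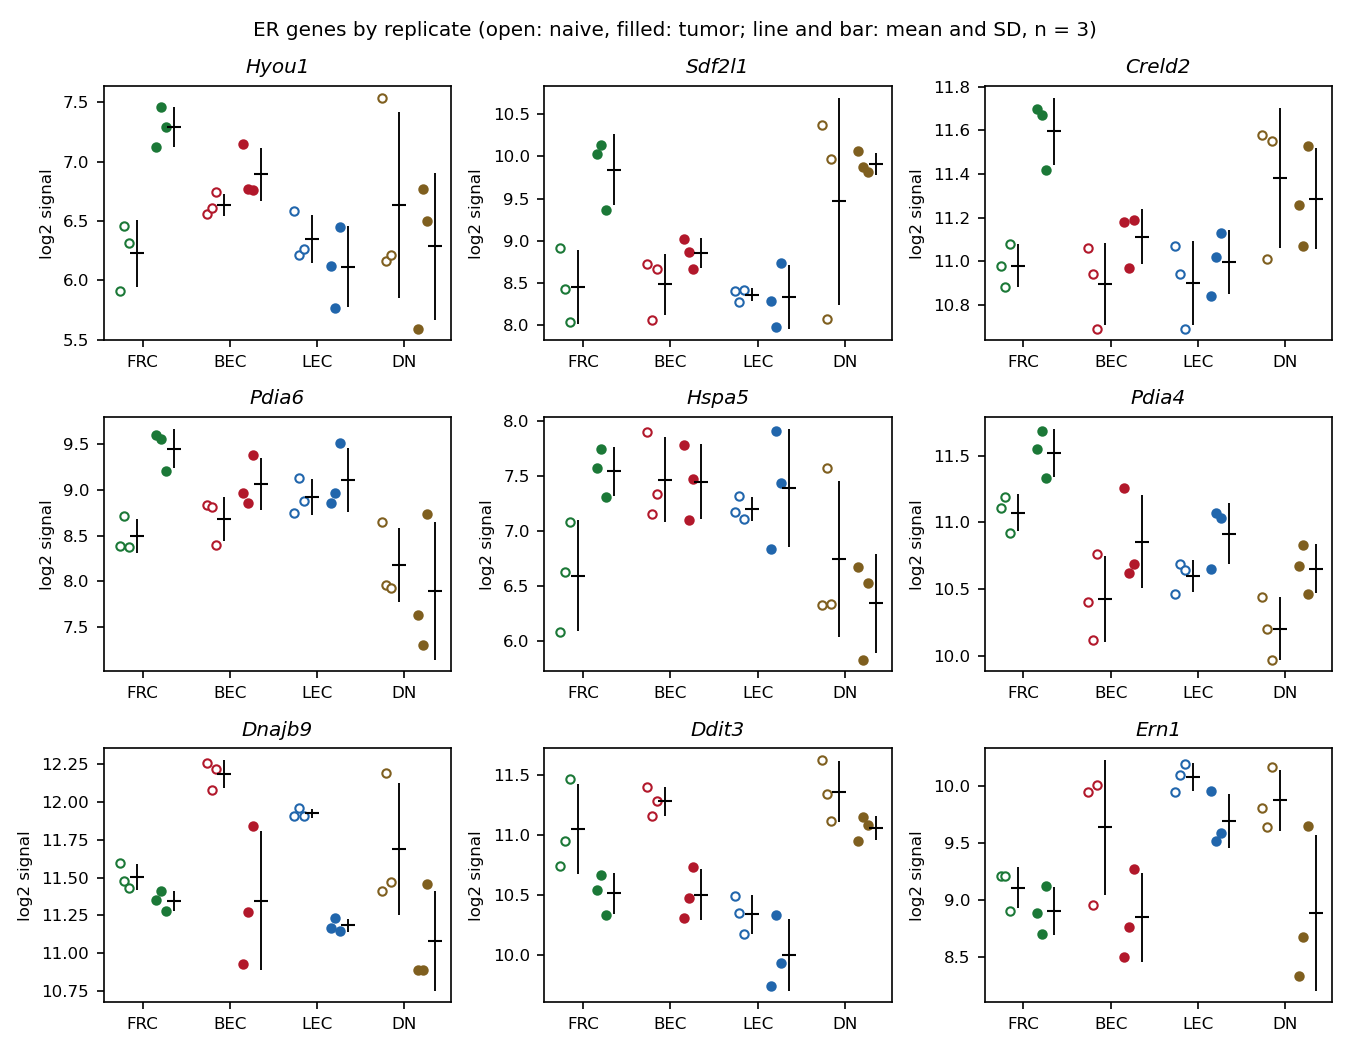
Log2 signal (y axis) of 9 ER genes in each replicate of the 4 cell types, with open points for naive mice and filled points for mice with tumor, and the mean and SD (n = 3) beside them. In FRCs the tumor points of *Hyou1*, *Sdf2l1*, *Creld2*, *Pdia6*, *Hspa5* and *Pdia4* all lie above the naive points, while the tumor points of *Dnajb9* and *Ddit3* lie below the naive points in FRCs and BECs.

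The products of the 4 disulfide isomerase genes form and rearrange disulfide bonds of folding proteins. On the brightest probes all 4 had changes above 0 in FRCs, BECs and LECs, and 1 of the 12 changes passed. *Pdia6* had 8.39, 8.71 and 8.38 in naive and 9.60, 9.55 and 9.20 in tumor FRCs (ILMN_2489360, chr12:17266589-17284785). It rose 1.94-fold without overlap (adjusted p = 0.040, log2 change 0.96 with a standard error of 0.29). Its second probe had differences of 0.68 in FRCs, -0.03 in BECs, 0.09 in LECs and 0.31 in DN cells. *Pdia4* had 11.11, 11.19 and 10.92 in naive and 11.55, 11.69 and 11.33 in tumor FRCs (log2 change 0.45, adjusted p = 0.15). Its BEC values were 10.40, 10.12 and 10.76 against 11.26, 10.62 and 10.69, and its LEC values 10.46, 10.69 and 10.64 against 10.65, 11.07 and 11.03 (log2 changes 0.43 and 0.32, adjusted p = 0.23 and 0.74). Both of these overlapped. In DN cells *Pdia4* lay apart, with 10.44, 10.20 and 9.97 against 10.67, 10.83 and 10.46 (log2 change 0.45, adjusted p = 0.17). *Pdia3*, the isomerase that works with the lectin chaperones, had a DN change of -0.42 (13.52, 13.60 and 13.23 against 13.19, 13.23 and 12.66, adjusted p = 0.078), with overlap at the value 13.23. *P4hb*, which is both an isomerase and the beta subunit of the collagen prolyl hydroxylase, had high signals of 14.25 to 15.25 in all replicates and changed by -0.15 to 0.14.

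*Calr*, a lectin chaperone for glycoproteins, had 10.78, 10.35 and 10.35 in naive and 11.30, 11.67 and 10.41 in tumor FRCs. Tumor replicate 3 fell among the naive values, and the log2 change of 0.63 did not pass (adjusted p = 0.19). In the other 3 cell types its changes were -0.30, -0.30 and -0.48. *Serpinh1* encodes HSP47, the chaperone of procollagen. Its FRC values, 15.58 to 15.65 in naive and 15.42 to 15.72 in tumor replicates, overlapped near the upper limit of the signals, which reached 16.15. Its largest change was in DN cells, with 13.61, 14.71 and 13.74 in naive and 14.06, 14.17 and 14.97 in tumor replicates (log2 change 0.38, adjusted p = 0.38).

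Of the 7 genes of stress sensors and stress factors, *Ddit3* was called in BECs and none in the other cell types. Their median log2 change was -0.17 in FRCs, -0.26 in BECs, -0.20 in LECs and -0.01 in DN cells. *Ddit3* encodes CHOP, the transcription factor that links prolonged ER stress to cell death. Its BEC signals were 11.40, 11.16 and 11.28 in naive and 10.31, 10.47 and 10.73 in tumor replicates (ILMN_2652909, chr10:127290793-127296291). It fell 1.72-fold without overlap (adjusted p = 0.024, log2 change -0.78 with a standard error of 0.19). The other *Ddit3* probe had a difference of -0.87. In FRCs the values were 10.74, 10.95 and 11.47 against 10.54, 10.67 and 10.33, also apart (log2 change -0.54, adjusted p = 0.083). LEC values of 10.49, 10.35 and 10.17 against 9.74, 10.33 and 9.93 overlapped (log2 change -0.34, adjusted p = 0.70).

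*Ern1*, the gene of the IRE1 sensor, had its largest change in DN cells, with 9.81, 9.64 and 10.17 in naive and 8.33, 8.67 and 9.65 in tumor replicates (ILMN_2502860, chr11:106397620-106487796). Tumor replicate 3 overlapped the naive values, and the log2 change of -0.99 missed the threshold (standard error 0.30, adjusted p = 0.052). In BECs *Ern1* was 9.95, 8.95 and 10.01 against 8.50, 8.76 and 9.27, where naive replicate 2 lay among the tumor values (log2 change -0.80, adjusted p = 0.14). *Atf4*, the transcription factor downstream of PERK, was 13.32, 13.47 and 13.12 in naive and 12.91, 13.04 and 12.83 in tumor DN cells, apart by a log2 change of -0.37 (adjusted p = 0.096). In LECs it was 13.43, 13.52 and 13.61 against 13.44, 13.39 and 13.11 (log2 change -0.20, adjusted p = 0.77). The second *Atf4* probe did not follow the first, with differences of 0.02 in FRCs, -0.61 in BECs, -0.90 in LECs and 0.06 in DN cells.

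*Trib3*, a pseudokinase gene induced by ATF4 and CHOP, was 9.77, 9.30 and 8.60 in naive and 9.86, 9.74 and 10.03 in tumor DN cells (log2 change 0.66, adjusted p = 0.14), with overlap from naive replicate 1. *Asns*, the ATF4 target that makes asparagine, had its largest change in BECs, where the tumor replicates at 12.46 to 12.85 lay just above the naive ones at 11.89 to 12.45 (log2 change 0.57, adjusted p = 0.45). *Xbp1* was high and even, with changes of -0.12 to -0.01, and the array does not separate its spliced form. *Atf6* stayed near the background level in all groups, with means of 5.15 to 5.95, so its changes of -0.28 to 0.16 carry little information.

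None of the 6 degradation genes, which pull misfolded proteins out of the ER, passed in any of the 4 cell types. *Herpud1*, a stress-induced scaffold of the degradation complex, was 14.55, 14.08 and 14.59 in naive and 14.15, 14.07 and 13.98 in tumor BECs (log2 change -0.34, adjusted p = 0.22). In LECs it was 14.40, 14.32 and 14.15 against 14.00, 14.08 and 13.83, without overlap (log2 change -0.32, adjusted p = 0.57). *Derl3*, a stress-induced gene of the derlin family, had the largest change of this role in FRCs, with 7.14, 6.74 and 6.04 in naive and 6.09, 5.07 and 5.14 in tumor replicates. The groups overlapped, 2 of the 3 tumor values were below background, and the log2 change of -1.21 had a standard error of 0.90 (adjusted p = 0.44). *Derl1* was above background in few replicates, and its DN values of 5.57, 5.66 and 5.63 against 5.06, 5.54 and 5.07 differed by -0.39 (adjusted p = 0.14). *Edem1*, *Sel1l* and *Syvn1*, which mark, bind and ubiquitinate the substrates, changed by -0.75 to 0.41 on their brightest probes. For *Sel1l* a dimmer probe had -0.48, -0.41, -0.48 and -0.43 in FRCs, BECs, LECs and DN cells, where the brightest had -0.11, -0.08, -0.03 and -0.05. Others of its probes had -0.80 and -0.04 in DN cells.

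The 3 translocon genes encode parts of the channel through which proteins enter the ER, and none of their changes passed. The largest, on the brightest probes, was that of *Sec61a1* in BECs, at 10.64, 11.14 and 10.66 in naive and 11.25, 10.98 and 11.14 in tumor replicates, which overlapped (log2 change 0.31, adjusted p = 0.60). Its dimmer second probe went against it, with -0.79 in FRCs, -0.82 in BECs, 0.04 in LECs and -0.45 in DN cells. *Ssr1* in LECs was 9.91, 10.15 and 9.96 against 9.81, 9.61 and 9.83, apart by -0.25 (adjusted p = 0.76). Of the 3 export genes tested, *Sec24d*, a cargo-binding COPII subunit known for collagen export, had 8.88, 9.29 and 8.37 in naive and 7.78, 7.54 and 8.98 in tumor DN cells (log2 change -0.75, adjusted p = 0.15). *Mia3*, the TANGO1 receptor that loads collagen, and *Lman1*, a glycoprotein cargo receptor, changed by -0.36 to 0.06 on their brightest probes. A dimmer *Mia3* probe had -0.54 in LECs and -0.73 in DN cells, and another had 0.09 and -0.28. Neither the translocon nor the export role had a call in any cell type.

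Averaged over the 4 cell types, 5 ER genes fell and 1 rose, against 10.9% and 12.7% of all genes. *Dnajb9* fell with the smallest p of the 32 (mean log2 change -0.59, standard error 0.11, adjusted p = 0.00061), and *Ddit3* with the next (-0.49, adjusted p = 0.0013). *Ern1* fell by 0.60 on the log2 scale (adjusted p = 0.0080), *Atf4* by 0.25 (adjusted p = 0.010) and *Herpud1* by 0.27 (adjusted p = 0.017). On the brightest probes each of these 5 was below 0 in all 4 cell types, as were the second probes of *Dnajb9*, *Ddit3* and *Herpud1*. The second *Atf4* probe was above 0 in FRCs (0.02) and DN cells (0.06) and below 0 in BECs and LECs. A dimmer *Ern1* probe, at a mean level of 6.11, had 0.06 in FRCs, -0.60 in BECs, -0.15 in LECs and -0.76 in DN cells. *Pdia4* rose by 0.41 (standard error 0.10, adjusted p = 0.0052) and was above 0 in all 4, with 0.45, 0.43, 0.32 and 0.45. *Sdf2l1* just missed the threshold at 0.54 (adjusted p = 0.057). The fall of *Dnajb9*, *Ddit3*, *Ern1* and *Herpud1* and the rise of *Pdia4* lost their calls when 7 tumor libraries with RNA of other cells were left out together. Their log2 changes kept their sign at -0.37, -0.42, -0.35, -0.31 and 0.38. This left 1 tumor library each in BECs, LECs and DN cells, so fewer libraries and less RNA of other cells cannot be told apart. The libraries kept were not free of such RNA, as DN tumor replicate 3 had medians of 8.82 for plasma cell and 10.04 for BEC markers. *Atf4* and, as the gene that rose, *Pdia6* were called in that fit.

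Whether the changes differ between cell types was tested directly. No ER gene passed the F test over the 4 cell types, which 1.31% of all genes passed, or any of the 6 pairwise tests, in at least 1 of which 2.18% of all genes passed (limma). At an unadjusted p under 0.05, 4 ER genes passed the F test, and the share of all genes at that threshold is not given here. The smallest adjusted p was 0.22, for *Pdia3*. The change in FRCs exceeded that in DN cells by 1.41 for *Hyou1* (adjusted p = 0.14), by 1.34 for *Hspa5* (adjusted p = 0.20) and by 1.24 for *Pdia6* (adjusted p = 0.15). For *Pdia6* the second probe had 0.68 in FRCs and 0.31 in DN cells, where the first had -0.29. *Derl3* ran the other way, with an FRC minus DN difference of -1.45 (adjusted p = 0.69), and *Sdf2l1* in FRCs exceeded LECs by 1.42 (adjusted p = 0.33). The rise of chaperone genes in FRCs is therefore not shown to be absent from the other cell types.

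Signals of other gene groups moved with tumor state in the same libraries. Early response genes, which include those induced when tissue is digested, had medians of 13.75 to 14.14 in naive and 12.69 to 12.77 in tumor FRCs, and 4 of 14 fell (*Fosb*, *Klf2*, *Fos* and *Klf4*, median log2 change -0.70). In BECs 2 of 14 fell (*Fosb* and *Egr2*), and tumor replicate 3, with the smallest fall of *Dnajb9*, was close to the naive libraries with a median of 13.96 against 13.40 and 12.68 in tumor replicates 1 and 2. None of 11 cytosolic heat shock genes passed the limma test in any cell type, with 0, 0, 1 and 2 at an unadjusted p under 0.05 in FRCs, BECs, LECs and DN cells. Plasma cells, which are rich in ER, had marker medians of 5.84 to 6.09 in naive FRCs and 6.56, 7.63 and 9.21 in tumor replicates 1, 2 and 3. The markers did not move together, as 3 of the 5 tested had changes above 0 and 2 below 0 in FRCs (median log2 change 0). In DN cells the split was also 3 and 2 (median 2.41). Among the tumor FRCs, signals of *Sdf2l1*, *Creld2* and *Pdia6* were lowest in replicate 3, where the plasma cell median was highest. Without this replicate their log2 changes were 1.63, 0.70 and 1.08, all still called, and *Hyou1* (1.06) had an adjusted p of 0.067 (limma). Tumor replicates 1 and 2 also had plasma cell medians above the naive ones, so this fit does not test the part of plasma cell RNA. Of 5 tested plasma cell markers, 1 rose in FRCs, 1 in BECs, none in LECs and 2 in DN cells, and of 9 tested B cell markers 2 rose in BECs and 5 in DN cells. Of 10 tested leukocyte markers, 1 rose in BECs and 6 in DN cells, and in FRCs their median went from 6.04 to 6.77 in naive to 7.31 to 8.67 in tumor replicates with none called. Also in FRCs, the myeloid markers *Csf1r* and *Cd14* (2 of 9 tested) and the contractile gene *Tagln* (3.65-fold, 1 of 9 of the pericyte list) rose. *Madcam1* of the BEC list rose as well (4.59-fold), but 9 of the 11 genes of that list had changes below 0 (median -0.46). The paper used MadCAM-1 as a marker of marginal reticular cells, a mesenchymal subset. In DN cells 4 of 11 blood endothelial markers rose, namely *Pecam1* (9.61-fold), *Cdh5*, *Flt1* and *Tie1*. In BECs the plasma cell median was 5.71 to 6.10 in naive and 9.09, 10.42 and 6.14 in tumor replicates, and in DN cells 5.61 to 5.90 and 10.54, 9.66 and 8.82. All 8 cell cycle genes tested rose in each of the 4 cell types. The part of these groups in the changes of ER genes was not tested.

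**Figure D3:**
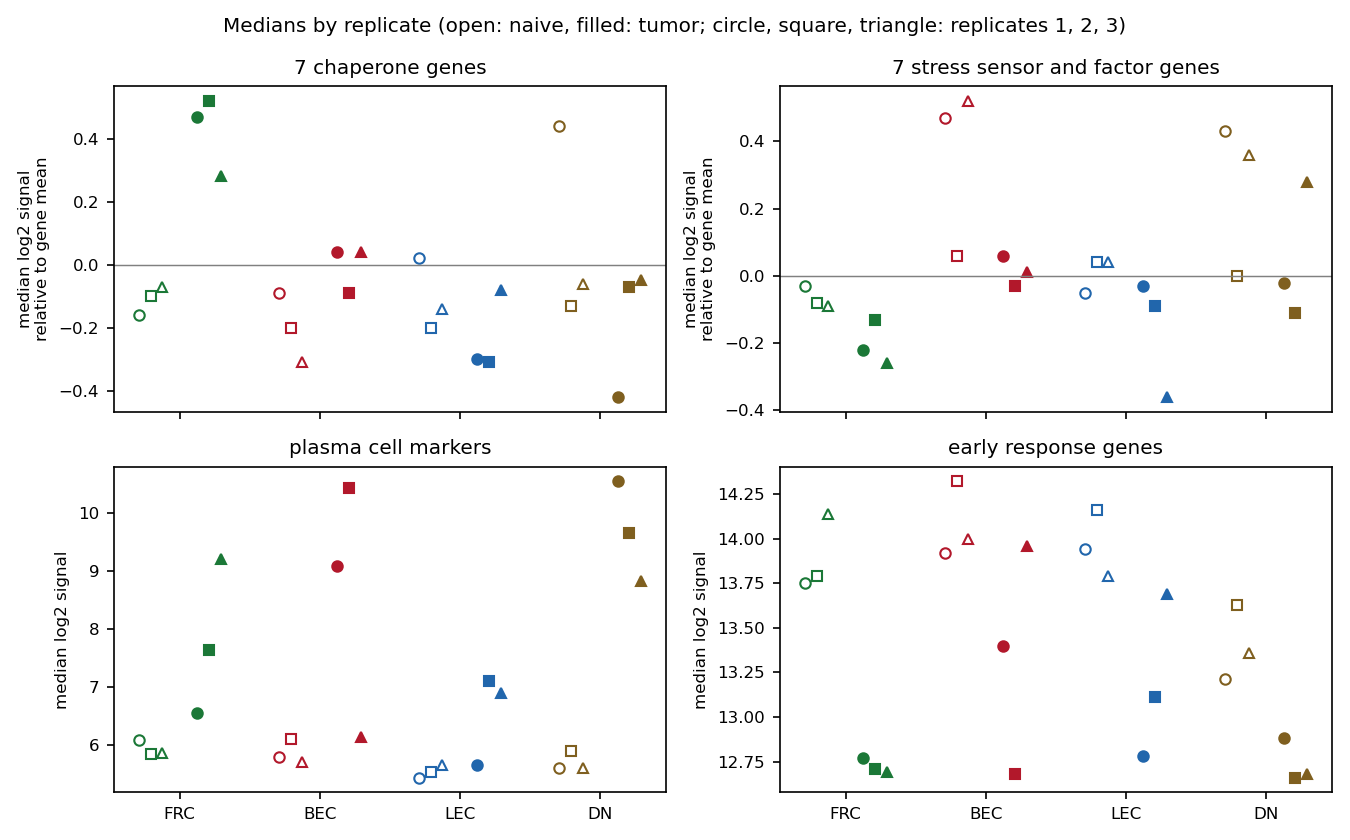
Median log2 signal in each replicate (y axis) of the 7 chaperone genes and the 7 stress sensor and factor genes, relative to each gene's mean over all 24 replicates, and of plasma cell markers and early response genes as levels. Open symbols are naive and filled symbols tumor replicates, and the symbol shape gives the replicate number. The 3 tumor FRC points of the chaperone genes (0.28 to 0.52) lie above the naive points (-0.16 to -0.07), and those of early response genes lie below theirs.

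The FRC calls did not stand without every library. Leaving out FRC naive replicate 2 or tumor replicate 1 or 2 left none of the 4 called, and without naive replicate 1 or 3 only *Sdf2l1* or *Creld2* was left. Genes of the whole array called higher in FRCs went from 840 to 464, 454, 343, 397 and 727 in these fits, in that order. Without tumor replicate 3 the called genes were *Sdf2l1*, *Creld2*, *Pdia6* and *Calr*. The BEC calls of *Dnajb9* and *Ddit3* were both lost without naive replicate 1 or 3 or tumor replicate 1 or 2. Genes of the whole array called lower in BECs went from 195 to 75, 46, 43 and 31 in these fits. With tumor replicate 3 as the only BEC tumor library, their log2 changes were -0.35 and -0.55. In LECs, where replicate numbers were taken to pair the samples, no ER gene was called with or without the pairing. Without DN naive replicate 2, *Dnajc3*, *Ern1*, *Edem1* and *Lman1* were lower and *Serpinh1* was higher in DN cells of the tumor group, among 31 ER genes tested. In that fit 964 genes were lower and 1011 higher of 13267.

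Among the genes with an ERSE match in their window, 8 were tested. In FRCs 6 of these 8 had a change above 0 (median 0.47), and *Creld2* and *Pdia6* were called higher, beside 6.4% of all genes. The lowest of the 8 was -1.21, for *Derl3*. The share of all genes with a change above 0 is not given here, and their median was -0.03. Of the 24 tested genes without a match or without a window, 12 had a change above 0 (median 0.05), and *Sdf2l1* and *Hyou1*, the latter with no window, were called. The median of the 8 was 0.01 in BECs, -0.06 in LECs and -0.20 in DN cells, beside 0, -0.10 and -0.18 for the 24. A link between a match and a change was not tested.

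Naive levels of the ER genes were also compared between cell types. Each cell type had a slide of its own, so these differences cannot be told apart from slide. Of the 32 ER genes, 22 differed in level among the 4 naive groups, a share close to the 69.1% of all genes (limma F test, adjusted p under 0.05). Of the 22, 11 were highest in DN cells, 5 in LECs, 4 in FRCs and 2 in BECs. That split was not made for all genes, so it is not read as a trait of ER genes. The collagen chaperone gene *Serpinh1* was highest in FRCs, at 15.62 ± 0.03 (SD, n = 3), against 14.62 ± 0.06 in BECs, the next in order (adjusted p = 0.0030), and 14.44 ± 0.07 and 14.02 ± 0.60 in LECs and DN cells, whose neighbours in the order did not differ. The collagen export gene *Sec24d* was also highest in FRCs, at 10.14 ± 0.14 against 9.17 ± 0.09 in LECs, the next in order (adjusted p = 0.017). *Trib3* had a 6.41-fold range, from 11.02 ± 0.08 in LECs and 10.66 ± 0.59 in BECs, which did not differ (adjusted p = 0.38), to 9.22 ± 0.59 in DN cells and 8.34 ± 0.32 in FRCs. *Ssr1* was at 10.01 ± 0.13 in LECs and 9.76 ± 0.06 in FRCs, above 8.83 ± 0.19 in BECs and 8.70 ± 0.23 in DN cells (adjusted p = 9.7e-05 between FRCs and BECs). *Hsp90b1* was highest in LECs, at 13.98 ± 0.08 against 13.55 ± 0.10 in FRCs (adjusted p = 0.013).

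**Figure D4:**
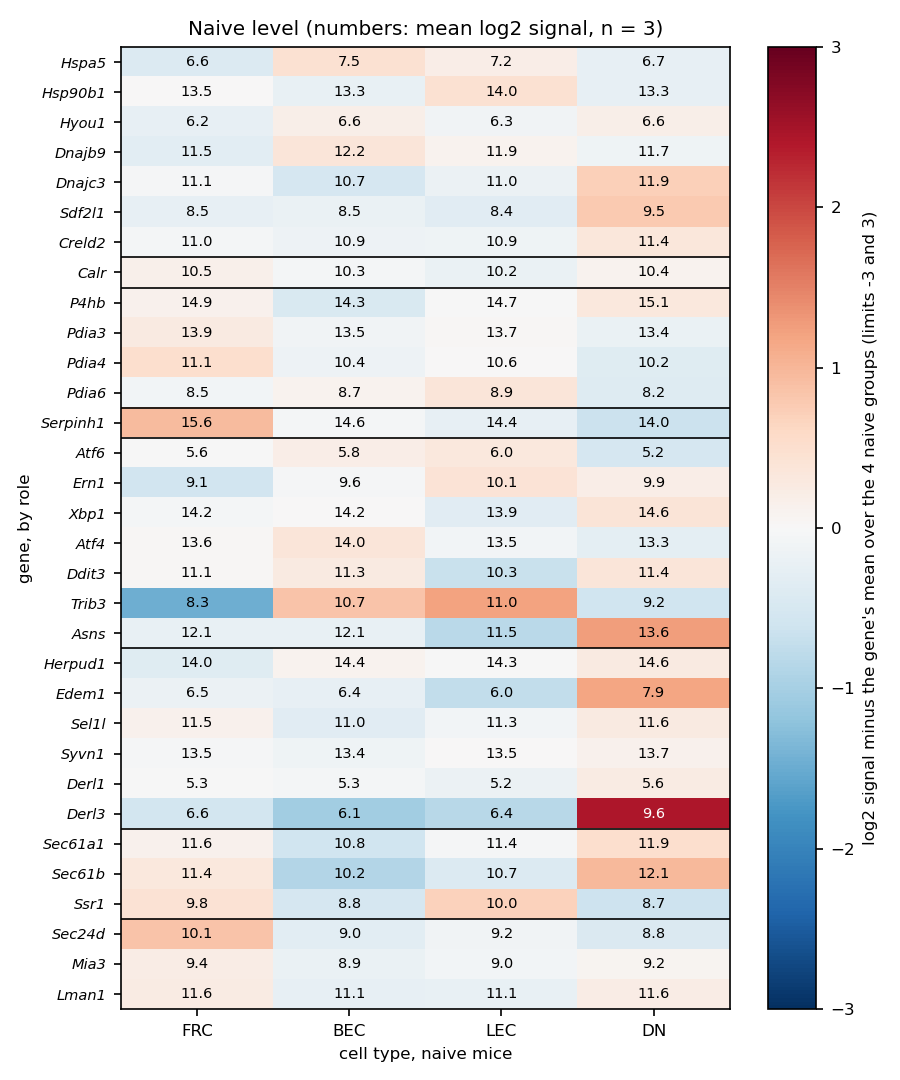
Mean log2 signal (numbers, n = 3) of the 32 ER genes in the 4 naive groups, colored by the difference from the mean of the 4 groups for that gene, with red above and blue below it. *Serpinh1* and *Sec24d* are highest in FRCs and *Trib3* in LECs, and *Derl3*, *Edem1* and *Asns* are highest in DN cells.

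The high DN levels rested on naive replicates 1 and 3. *Derl3* was 11.00, 6.74 and 11.04 in the DN naive replicates and 9.14, 9.97 and 10.41 in the DN tumor replicates, against 5.00 to 7.63 in all other libraries. *Edem1* (8.61, 6.54 and 8.47), *Asns* (14.29, 12.32 and 14.14), *Sdf2l1* (10.37, 8.07 and 9.97) and *Sec61b* (12.59, 11.01 and 12.57) had the same order, with naive replicate 2 the lowest. DN naive replicate 2 also had the highest fibroblast marker median of the DN naive libraries, 13.06 against 10.54 and 10.47, and the lowest epithelial and Schwann cell marker median, 11.77 against 13.11 and 13.46. Whether these other cells account for the ER genes was not tested. With all replicates, DN cells exceeded FRCs by 2.95 for *Derl3* (adjusted p = 0.014) and by 1.47 for *Asns* (adjusted p = 0.0061). Without DN naive replicate 2 these differences were 4.38 and 2.10 (adjusted p = 5.3e-05 and 1.4e-05), and 26 of 31 ER genes passed the F test, beside 73.9% of all genes, *Derl1* being below background in that fit.

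Other genes of the same pathways were taken from lists that do not share members with the 36. Of 146 such genes tested, 7 rose and 3 fell in FRCs, 6 rose and 1 fell in BECs, none passed the limma test in LECs (13 at an unadjusted p under 0.05), and 1 rose and 3 fell in DN cells. The shares of all genes, in the same order, were 6.4% and 4.12% in FRCs, 3.6% and 1.49% in BECs, 0.785% and 0.137% in LECs and 4.78% and 2.61% in DN cells. These counts depended on single libraries. Leaving out 1 replicate at a time gave 1 to 10 higher and 1 to 3 lower in FRCs, 1 to 11 and 0 to 4 in BECs, 0 to 1 and 0 to 1 in LECs, and 0 to 3 and 0 to 21 in DN cells. The number higher in FRCs was 1 when naive replicate 1, naive replicate 2, tumor replicate 1 or tumor replicate 2 was dropped. The number higher in BECs was 1 to 3 when naive replicate 1, naive replicate 3, tumor replicate 1 or tumor replicate 2 was dropped, and 11 without tumor replicate 3. The number lower in DN cells was 21 without DN naive replicate 2. *Psat1*, a serine synthesis enzyme gene and ATF4 target, rose in both FRCs (9.65 ± 0.33 to 11.26 ± 0.32, 3.05-fold, adjusted p = 0.0040) and BECs (8.67 ± 0.47 to 11.03 ± 0.74, 5.13-fold, adjusted p = 0.00037). BECs also had higher *Shmt2* (3.41-fold, adjusted p = 0.0053) and *Phgdh* (4.45-fold, adjusted p = 0.028), both of serine and one-carbon metabolism, and lower *Sec62*, a translocation factor (log2 change -0.77, adjusted p = 0.022). In the PERK and ATF4 list 5 of 24 genes rose in BECs and none fell, the others being *Mthfd2*, which also rose in FRCs (log2 changes 1.51 and 1.28), and the tRNA synthetase gene *Gars*. With tumor replicate 3 as the only BEC tumor library no gene of the array was called in BECs.

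In FRCs 2 further genes of the PERK and ATF4 list fell, namely *Ppp1r15b*, which encodes a regulator of the eIF2α phosphatase (log2 change -0.85, adjusted p = 0.012), and the stress factor gene *Atf3* (log2 change -1.02, adjusted p = 0.018). The cochaperone gene *Dnajc1* fell too (log2 change -1.35, adjusted p = 0.024). The genes that rose included *Ddost*, *Rpn2* and *Srprb* of protein entry and N-glycosylation, with log2 changes of 0.70, 0.38 and 0.71, and *Trappc1* and *Tfg* of ER export, with 0.54 and 0.50. In LECs the smallest adjusted p were those of *Ppp1r15b* (log2 change -0.84, adjusted p = 0.056), *Pdia2* (2.50, adjusted p = 0.085), *Gars* and *Psat1*. *Pdia2* is a pancreatic isomerase, and its tumor SD of 2.32 went with the pancreatic enzyme signal of LEC tumor replicates 1 and 2. In DN cells *Creb3l2*, *Kdelr3* and *Atf3* were lower (log2 changes -0.68, -0.64 and -0.88) and *Shmt2* was higher (1.18). All DN calls rest on the spread shared over the 8 groups. A model of DN cells alone called no gene of the array in either direction.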

How the data were processed

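Expression was measured on Illumina mouse bead arrays. The value table deposited by the authors holds log2 signals of 45281 probes on 48 strips, with 122 empty cells. How the authors summarized, background-corrected and normalized the values is not given in the sources used here. The bead files deposited by the authors hold the fluorescence intensity of each bead and served for alternatives only. Bead codes were matched to probes by their profile over the strips, which gave 45156 probes a code of their own.

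Log2 values were quantile normalized and the strips of a replicate averaged. The background level, 5.62, lay 3 robust SDs (0.19) above the mode of 5.04. Probes annotated with a single symbol were kept if any group mean exceeded it, and the brightest stood for its gene. Symbols came from the platform annotation, updated through RefSeq, and coordinates are GRCm38.p6. Groups came from sample labels. One limma 3.58.1 model (R 4.3.3) with a mean for each of the 8 groups (residual df 16) gave all contrasts, adjusted by Benjamini-Hochberg over 13119 genes. It was tested on simulated data. Replicate numbers were taken to pair naive and tumor replicates where the deviations of every pair correlated above 0.1, which held for LECs alone (0.20, 0.23, 0.15).

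The genes, their roles and the other lists were chosen with earlier results of these data known. Named are genes that passed a tumor contrast, the mean contrast or an interaction, per cell type the 6 with the smallest adjusted p, per role the largest change, and per cell type 4 genes of the wider lists. Other genes named were chosen after their values were seen. Alternatives were 15 other settings, leaving out each of the 24 replicates, and 4 settings without some of the libraries carrying RNA of other cells, chosen after seeing the data. Figures were drawn with matplotlib 3.10.9 under Python 3.11.15.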

Additional observations from a re-analysis of the deposited data

How the results depend on the processing

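The naive F test count stayed within 1.5 times 22 under the 39 alternatives run for it (15 to 26 when leaving out replicates). No named change reversed, and no ER gene was called higher in LECs under any alternative. Leaving out each replicate gave 0 to 5 genes higher and 0 lower in FRCs, 0 higher and 0 to 3 lower in BECs, 0 and 0 in LECs, 0 to 1 higher and 0 to 4 lower in DN cells, 1 to 3 higher and 5 to 6 lower for the mean of the 4 cell types, and 0 to 1 in the interaction F test.

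For the 4 higher FRC genes, the count was 0 with strip 2 alone (591 of all 13365 genes higher). It was also 0 with an adjusted t-test with gene-wise variances (468 of all 13119 genes). The count was 9 with that test unadjusted (2038 of all 13119 genes higher) and 9 with array weights (2521 of all genes). For the 2 lower BEC genes, the count was 0 with strip 2 alone (97 of all 13365 genes lower). It was also 0 in a model of BECs alone (15 of all 13119 genes) and with the adjusted t-test (0 of all genes). With tumor replicate 3 as the only BEC tumor library, also when 7 tumor libraries were left out, *Dnajb9* and *Ddit3* changed by -0.35 and -0.55. The DN count of lower genes went from 0 to 1 as deposited, with equal strip medians, the stricter filter or the mean over probes (*Ern1* in each). It was also 1 with strip 1 alone (*Sec24d*), strip 2 alone (*Pdia3*) or the unadjusted t-test (*Atf4*). It went to 2 with bead means, with or without normexp. These settings called 242 to 545 of all genes lower in DN cells. In LECs 1 gene was lower in the model of LECs alone (*Dnajb9*) and 2 with the unadjusted t-test (*Dnajb9* and *Herpud1*). Of all genes, 18 and 659 were lower there. That t-test also called 3 genes higher in BECs (1142 of all genes). The mean over the 4 cell types had 2 genes higher with the mean over probes or strip 2 alone, 3 higher and 3 lower with DN tumor replicate 3 alone, when the F test called 1, and 1 lower without 7 tumor libraries. Array weights, whose fit stopped before full convergence, called 3 lower in FRCs, 5 higher and 5 lower in BECs, 1 lower in LECs, 1 higher and 5 lower in DN cells, 5 higher and 8 lower for the mean, and 12 in the F test. Many of all 13119 genes were called too, 2699 lower in FRCs, 1961 higher and 2038 lower in BECs and 187 lower in LECs. The same fit had 1335 higher and 1272 lower in DN cells, and 2606 and 3186 for the mean. The count of all genes in that F test is not given here. The causes were not tested. Where 1 tumor library was left, it was assumed to vary like the other groups.

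With a replicate block, 1 gene was higher in FRCs (*Sdf2l1*), 0 were lower in BECs and 2 were higher for the mean. Of all 13119 genes, 648, 133 and 1487 were called in these comparisons. Numbers were taken to pair the samples in LECs only, from weak correlations and not from the labels, and there the replicate block changed no call. Probes near background, such as those of *Hspa5*, *Hyou1* and *Atf6*, limit what these arrays show of a change.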
